A study of Rattus norvegicus with 6 samples.

Results

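The transcripts of the AP-1 and EGR families of immediate-early transcription factors were followed in rat tail discs. The 10 genes were the Fos subunits Fos, Fosb, Fosl1 and Fosl2, the Jun subunits Jun, Junb and Jund, the related factor Atf3, and the zinc finger factors Egr1 and Egr2. They were taken by gene name from a table of 30562 rat genes, and each name matched 1 row. Whole-disc RNA was sequenced from 6 libraries, 3 labelled Control and 3 labelled AF-PTK@LEV@SPP1, the latter called labelled treated below. All rats carried the WT genotype by the labels and were, by the paper's methods, 12-week-old male Sprague-Dawley rats whose tail disc had been punctured with a needle. AF-PTK@LEV@SPP1 is a hybrid particle of liposome and bacterial membrane, with a peptide that directs it to the annulus fibrosus (AF) through a linker sensitive to oxidation, loaded with siRNA against Spp1. It was injected into the disc as 10 μL at 1 mg/kg of siRNA from 24 h after surgery, with PBS in the controls, and discs were followed for 8 weeks. The sample records disagree in several respects, since they describe untreated controls, 14 days of treatment, and discs excised from mice that were digested with collagenase and sorted for macrophages, while their organism field names the rat. How long a disc waited between removal and lysis is not given in the sources used here.

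AP-1 is a dimer of a Jun subunit with a Fos, Jun or ATF subunit, which binds short palindromic sites in promoters and enhancers. Transcripts of Fos, Jun and Egr1 appear within minutes of a growth factor, a cytokine, mechanical load, or the handling and digestion of tissue, and decay soon after, because their messages are unstable. Fosl1 and Fosl2 are made later and last longer, lack the strong activation domain of Fos, and are known for their roles in bone, cartilage and fibrosis, while many matrix metalloproteinase and cytokine promoters carry AP-1 sites.

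The libraries held 17942989, 16565291 and 17489851 counts in Control replicates 1, 2 and 3, and 17074981, 15560728 and 17855184 in labelled treated replicates 1, 2 and 3. At this depth 3 counts, the floor used here, corresponded to 0.154 to 0.193 normalized CPM (CPM, counts relative to the library's total after adjustment for composition), a limit that covers counting error alone. Control replicates 2 and 3 were close to a single library, since over 14393 genes their counts varied 1.33 times as much as counting noise, against 51.3 to 107 times for the other pairs within a group. They were therefore counted as 1 sample, which left n = 2 Control samples and n = 3 labelled treated samples. With these numbers a two-sided exact permutation test cannot give a p below 0.1.

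The siRNA is described as directed against mouse Spp1. Rat Spp1 transcripts stood at 8110, 4410 and 4410 normalized CPM in Control and at 8050, 6890 and 8450 in the libraries labelled treated. Its log2 fold change was 0.31 (SE 0.366, 95% confidence interval -0.617 to 1.235, edgeR adjusted p = 0.628). The mean of the target was therefore not lower under the treated label. A reduction within that interval was not excluded with these samples. The level of Spp1 in macrophages alone was not tested, since the RNA came from whole discs. Every direction given here is relative to the labels. The records' sorted macrophages were set against markers as well. Annulus and tendon markers, led by Col1a1, summed to 55000 to 117000 normalized CPM in the 6 libraries and chondrocyte markers, led by Col2a1, to 22400 to 41700. Macrophage and monocyte markers summed to 721 to 3200, and none of these sums is scaled by gene length. The libraries therefore held abundant transcripts of disc matrix cells, and in such bulk RNA fewer cells of a type and less RNA per cell cannot be told apart.

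Fosl2 was lower in the libraries labelled treated, by 2.39-fold, and was the only member of the 10 to pass the test across all genes. Fosl1, Atf3 and Egr2 also lay lower in every library labelled treated than in every Control library, without passing it. Fos, Fosb, Jun, Jund and Egr1 overlapped between the groups, and Junb had no counts. A gene was called when edgeR's quasi-likelihood test gave a Benjamini-Hochberg adjusted p under 0.05 over the 15537 genes tested.

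Of the 9 members tested, 1 was called lower, where 2.57% of all genes tested were called lower, and 0 were called higher, where 1.13% were. At an unadjusted edgeR p under 0.05, 3 members were lower and 0 higher, where 13% and 12.4% of all genes were. DESeq2 and limma-voom likewise called 0 members higher. Groups did not overlap for 4 members, each lower in the libraries labelled treated, while 21.9% of all genes lay apart in that direction and 23.9% in the other. The median log2 fold change of the 9 members was -0.255, against 0.0465 over all genes tested. With Control replicates 2 and 3 kept as separate samples, 2 members were called lower and 0 higher, where 9.93% and 8.2% of 15042 genes were called.

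Fosl2 (ENSRNOG00000068412, chromosome 6 from 24300956 to 24320034 in the table's annotation, whose build is not named) encodes Fra-2, a Fos family subunit without a strong activation domain. It had 83.5, 100 and 103 normalized CPM in Control replicates 1, 2 and 3, and 42.9, 34.6 and 39.2 in labelled treated replicates 1, 2 and 3. Each Control library lay well above each library labelled treated, and Control replicate 1 was near the near-identical pair. The means were 92.5 ± 12.7 (SD, n = 2) in Control and 38.9 ± 4.13 (SD, n = 3) in the libraries labelled treated. The log2 fold change was -1.26 (SE 0.149, 95% confidence interval -1.63 to -0.88, edgeR adjusted p = 0.0262), and all 3 libraries labelled treated showed its direction (two-sided exact permutation p = 0.1). The call was lost with labelled treated replicate 1, 2 or 3 left out (edgeR adjusted p = 0.0549, 0.0843 and 0.149), with log2 fold changes of -1.37, -1.18 and -1.26. Over the 13 alternatives run for this gene, the adjusted p ranged from 2.05e-08 to 0.149 and the log2 fold change from -1.40 to -1.18.

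Fosl1 (ENSRNOG00000020552, chromosome 1 from 202754529 to 202764930) encodes Fra-1, the other late Fos family subunit. It had 4.98, 9.77 and 10.3 normalized CPM in Control and 2.23, 2.41 and 2.22 in the libraries labelled treated, from 97, 152 and 169 counts against 38, 40 and 39. The 3 libraries labelled treated were nearly level, and Control replicate 1 lay midway between them and the other Control libraries. The log2 fold change was -1.73 (SE 0.349, 95% confidence interval -2.61 to -0.84), with an edgeR adjusted p of 0.0647 that missed the threshold. The edgeR adjusted p was 0.0141 with the 6 libraries kept, 0.0463 without Control replicate 1, which leaves a single Control sample, and 0.00116 in DESeq2, within a range of 0.00116 to 0.207 over 13 alternatives. The span of Fosl1 overlaps that of Ccdc85b on the other strand, which had 0 counts in the 6 libraries.

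Atf3 (ENSRNOG00000003745), a stress-induced factor that pairs with Jun proteins and often represses, had 10.2, 20.3 and 22.9 normalized CPM in Control and 7.64, 4.28 and 8.82 in the libraries labelled treated. Control replicate 1 was close to the highest library labelled treated, while Control replicates 2 and 3 stood apart. Its log2 fold change was -1.21 (SE 0.44, 95% confidence interval -2.32 to -0.10), and it did not pass the adjustment (edgeR adjusted p = 0.173, 0.0586 to 0.295 over 13 alternatives).

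Fos (ENSRNOG00000008015, chromosome 6 from 105121170 to 105124036), the prototype of the rapid response, had 26.2, 101 and 105 normalized CPM in Control and 60.7, 26.4 and 119 in the libraries labelled treated. The groups spanned the same range, since Control replicate 1 and labelled treated replicate 2 were both low while labelled treated replicate 3 was as high as the Control pair. The highest library labelled treated exceeded the lowest by 4.51-fold, and the Control pair exceeded Control replicate 1 by 3.93-fold. The log2 fold change of 0.07 (SE 0.803, edgeR adjusted p = 0.962) had a 95% confidence interval of -1.96 to 2.10. Changes within that interval, in either direction, were therefore not excluded with these samples.

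Fosb, its close relative, was likewise low in Control replicate 1 and labelled treated replicate 2. It had 5.34, 17 and 15.1 normalized CPM in Control and 11.5, 3.31 and 16.9 in the libraries labelled treated. Labelled treated replicate 2 was the lowest library, with 55 counts, and replicate 3 lay near the Control pair. The log2 fold change was -0.03 (SE 0.768, edgeR adjusted p = 0.984), and its sign turned, to 0.013, when libraries were scaled by their totals alone.

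Jun (ENSRNOG00000026293), the main partner of Fos proteins, had 55, 134 and 137 normalized CPM in Control and 69.9, 59.9 and 112 in the libraries labelled treated. Control replicate 1 was the lowest library and the Control pair the highest, so that the groups overlapped (log2 fold change -0.25, SE 0.458, edgeR adjusted p = 0.757). Jund, a Jun subunit that is expressed more steadily, had 42.9, 63.1 and 60.8 normalized CPM in Control and 49.6, 35.4 and 65.7 in the libraries labelled treated. Its spread was 1.44-fold between the Control samples, against 2.47-fold for Jun, and 1.86-fold among the libraries labelled treated, against 1.87-fold for Jun. Its log2 fold change was -0.07 (SE 0.304, edgeR adjusted p = 0.904). The Junb row (ENSRNOG00000067725) is annotated as a pseudogene and was listed at 0 counts in the 6 libraries. No level of Junb is read from it.

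Egr1 (ENSRNOG00000019422, chromosome 18 from 26462981 to 26466766), a zinc finger factor induced through serum response factor, had the narrowest range over the 5 distinct samples of the 9 members tested. It had 43.8, 58.8 and 55.8 normalized CPM in Control and 45.2, 44.5 and 53.9 in the libraries labelled treated. The lowest library was Control replicate 1, and the spread was 1.31-fold between the Control samples and 1.21-fold among the libraries labelled treated. The log2 fold change was -0.09 (SE 0.167, edgeR adjusted p = 0.769), with a 95% confidence interval of -0.51 to 0.33. Egr2, known for its role in lymphocytes, had 6.62, 4.89 and 5 normalized CPM in Control and 3.11, 4.4 and 3.81 in the libraries labelled treated. Here Control replicate 1 was the highest library, unlike for the Fos and Jun genes, and labelled treated replicate 2 lay just under the Control pair. Its log2 fold change was -0.62 (SE 0.262, edgeR adjusted p = 0.217).

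**Figure D1:**
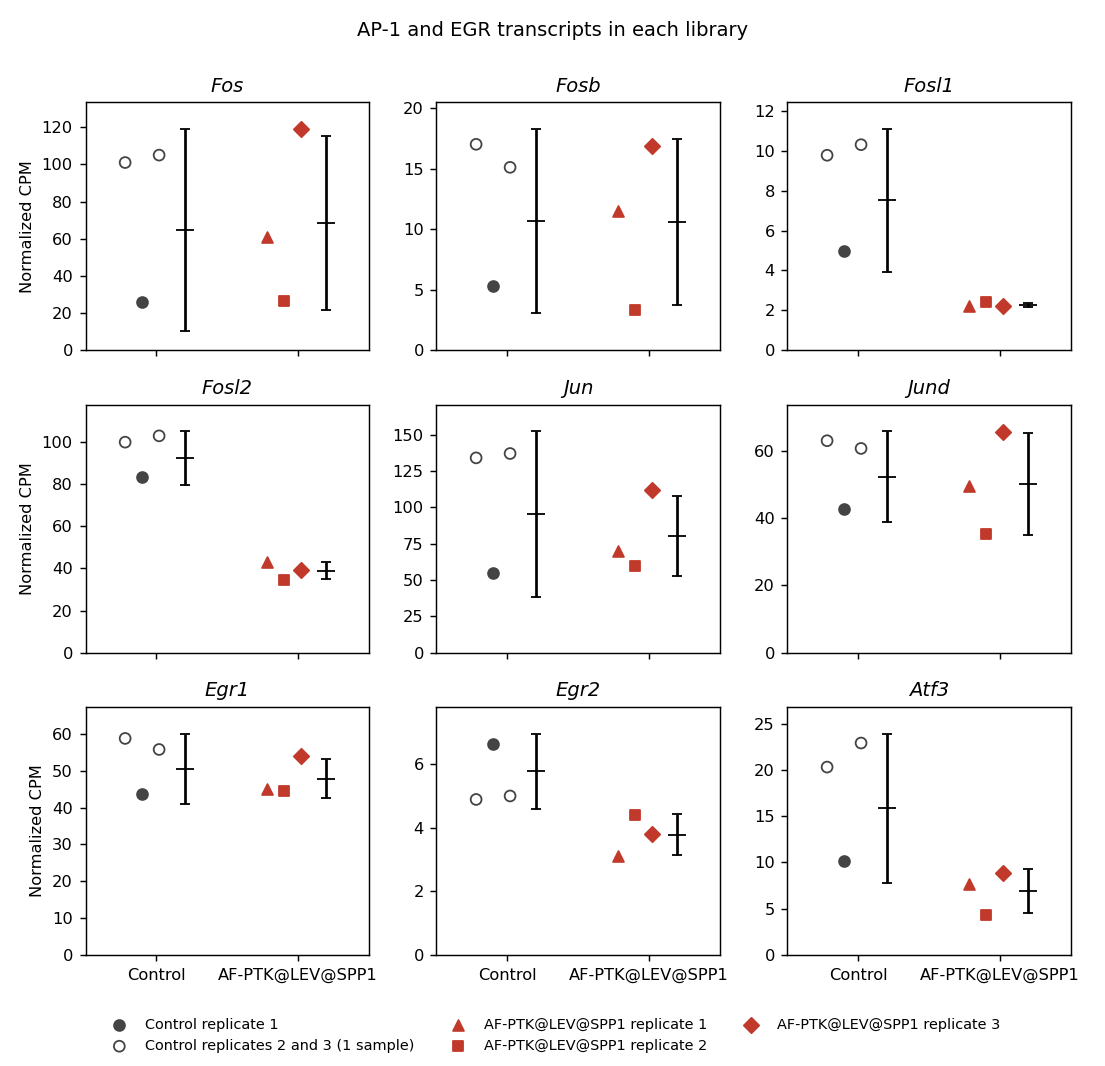
Normalized CPM (vertical axes, starting at 0) of the 9 members with counts, in Control and under the AF-PTK@LEV@SPP1 label, with 1 point per library and the mean ± SD over n = 2 distinct Control samples and n = 3 libraries labelled treated as bars. Fosl2 lies at 83.5 to 103 in Control and 34.6 to 42.9 in the libraries labelled treated, whereas for Fos both groups reach from about 26.2 to above 100.

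Fosl2 was also set against each of the 5 overlapping members within libraries, as the log2 difference of normalized CPM. Against Egr1 the difference was 0.928 in Control replicate 1 and 0.823 in the Control pair, and -0.0749, -0.361 and -0.458 in the libraries labelled treated. Against Fos it was 1.67 and -0.0231 in Control, and -0.501, 0.391 and -1.6 in the libraries labelled treated. The groups overlapped for the differences against Fos and Fosb (two-sided exact permutation p = 0.3 for each) and did not for those against Jun, Jund and Egr1 (p = 0.1 for each, the smallest the design allows, and 0.167 after Benjamini-Hochberg adjustment over 5). None passed the threshold, and since Fosl2 and these members were singled out by their group values the differences are a description only. Levels of the members were not ranked against each other because gene lengths are not in the table.

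Genes with profiles most like those of Fos, Jun and Egr1 were found by the root-mean-square difference of centred log2 CPM over the 5 distinct samples, among 10056 other genes whose log2 CPM averaged 3 or more. For Fos, Fosb was the nearest, at 0.254, where the median of all genes was 0.952. The next were ENSRNOG00000069024 at 0.345, the matricellular gene Fbln7 at 0.384, the tetraspanin Tspan2 at 0.424 and Comp, a cartilage and tendon matrix protein, at 0.425. For Jun the nearest were the proprotein convertase Pcsk5 at 0.0485, the complement gene C4a at 0.131, Comp at 0.166, the immediate-early matricellular gene Ccn1 at 0.17 and the WNT pathway gene Dkk3 at 0.181 (median 0.55). Both sets were low in Control replicate 1 and labelled treated replicate 2, and Comp had 1400, 3430 and 3460 normalized CPM in Control and 2400, 1700 and 3430 in the libraries labelled treated. For Egr1 the nearest were Ppat at 0.038, Pmm1 at 0.0488, Parp4 at 0.0505, Nup37 at 0.052 and Tlr4 at 0.0523 (median 0.259), a narrow range because Egr1 varied little. With 5 samples such likeness is a description only.

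Among AP-1 partners and related basic leucine zipper (bZIP) factors, 25 of 27 listed genes were tested, and edgeR called 3 lower and 0 higher (2.57% and 1.13% over all genes tested), with a median log2 fold change of -0.44, against 0.0465 over all genes. Cebpd, an acute-phase and inflammatory factor, had 40.6, 52.8 and 50.1 normalized CPM in Control and 10.7, 8.92 and 13.7 in the libraries labelled treated, a log2 fold change of -2.06 (SE 0.221, edgeR adjusted p = 0.023). Jdp2, a repressor that dimerizes with Jun, had 47.7, 34.5 and 30.6 against 17, 13.1 and 16.6 (log2 fold change -1.37, edgeR adjusted p = 0.0419). Cebpd and Jdp2 both fell in the libraries labelled treated, without overlap between the groups. At an unadjusted p, 11 were lower and 0 higher (13% and 12.4% over all genes). DESeq2 called 9 lower and 0 higher (1422 and 1081 of 22112 genes), and limma-voom 2 and 0 (315 and 139 of 15537). EdgeR with the 6 libraries kept called 9 and 0 (9.93% and 8.2% over all genes). Without Control replicate 1 the count called lower was 1, and without labelled treated replicate 1 it was 0.

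The EGR relatives and their NAB corepressors gave 3 tested genes of 5 listed. Nab1, which binds EGR proteins and represses their targets, had 71.9, 75.1 and 79.4 normalized CPM in Control and 48.8, 42.7 and 44.2 in the libraries labelled treated (log2 fold change -0.73, SE 0.111, edgeR adjusted p = 0.0402). It was the 1 gene of the 3 called lower (2.57% over all genes tested), and none was called higher by edgeR (1.13%), DESeq2 or limma-voom or at an unadjusted p (0 genes, 12.4% over all genes). Without Control replicate 1, and likewise without labelled treated replicate 1, the call was lost (0 genes). Egr4 was listed at 0 counts and Wt1 did not pass the filter.

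Other immediate-early genes, of which 43 of 44 listed were tested, had a median log2 fold change of -0.594. Of these, 7 were called lower and 0 higher, where 2.57% and 1.13% of all genes tested were, and 27 lay lower and 3 higher without overlap, where 21.9% and 23.9% of all genes did. Socs3, a feedback inhibitor of cytokine receptors induced by STAT3, had 114, 161 and 157 normalized CPM in Control and 18.3, 15.2 and 19.6 in the libraries labelled treated (log2 fold change -2.95, SE 0.197, edgeR adjusted p = 0.0119). Errfi1, a feedback inhibitor of the EGF receptor, had 263, 338 and 338 against 91.6, 80.8 and 84.6 (log2 fold change -1.82, edgeR adjusted p = 0.0196). Both fell in all 3 libraries labelled treated and varied little among them. Nfkbiz, a nuclear regulator of NF-κB targets, had a log2 fold change of -2.21 (edgeR adjusted p = 0.0402), and Rgs1, a regulator of G protein signaling in leukocytes, one of -2.32 (edgeR adjusted p = 0.0372). Ier5l and the kinase Plk3 followed with -1.61 and -1.35 (edgeR adjusted p = 0.0427 and 0.0426).

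Over the 43 genes, the median of centred log2 CPM was 0.187 in Control replicate 1 and 0.574 in the Control pair, and -0.317, -0.323 and -0.135 in labelled treated replicates 1, 2 and 3. The highest sample was the Control pair for 30 genes and Control replicate 1 for 6, while the lowest was labelled treated replicate 2 for 17 and replicate 1 for 16. Thus the list as a whole lay higher in Control, although Control replicate 1 was the lowest sample for 4 of its genes. Fos, Fosb, Jun, Jund and Egr1 did not share the list's position in Control replicate 1. Their centred log2 CPM there were -1.07, -0.726, -0.558, -0.215 and -0.15. At an unadjusted p, 24 genes were lower and 1 higher (13% and 12.4% over all genes). DESeq2 called 22 lower and 0 higher (1422 and 1081 of 22112 genes), and limma-voom 7 and 0 (315 and 139 of 15537). EdgeR with the 6 libraries kept called 19 and 0 (9.93% and 8.2% over all genes). Without labelled treated replicate 1 the count called lower was 2.

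**Figure D2:**
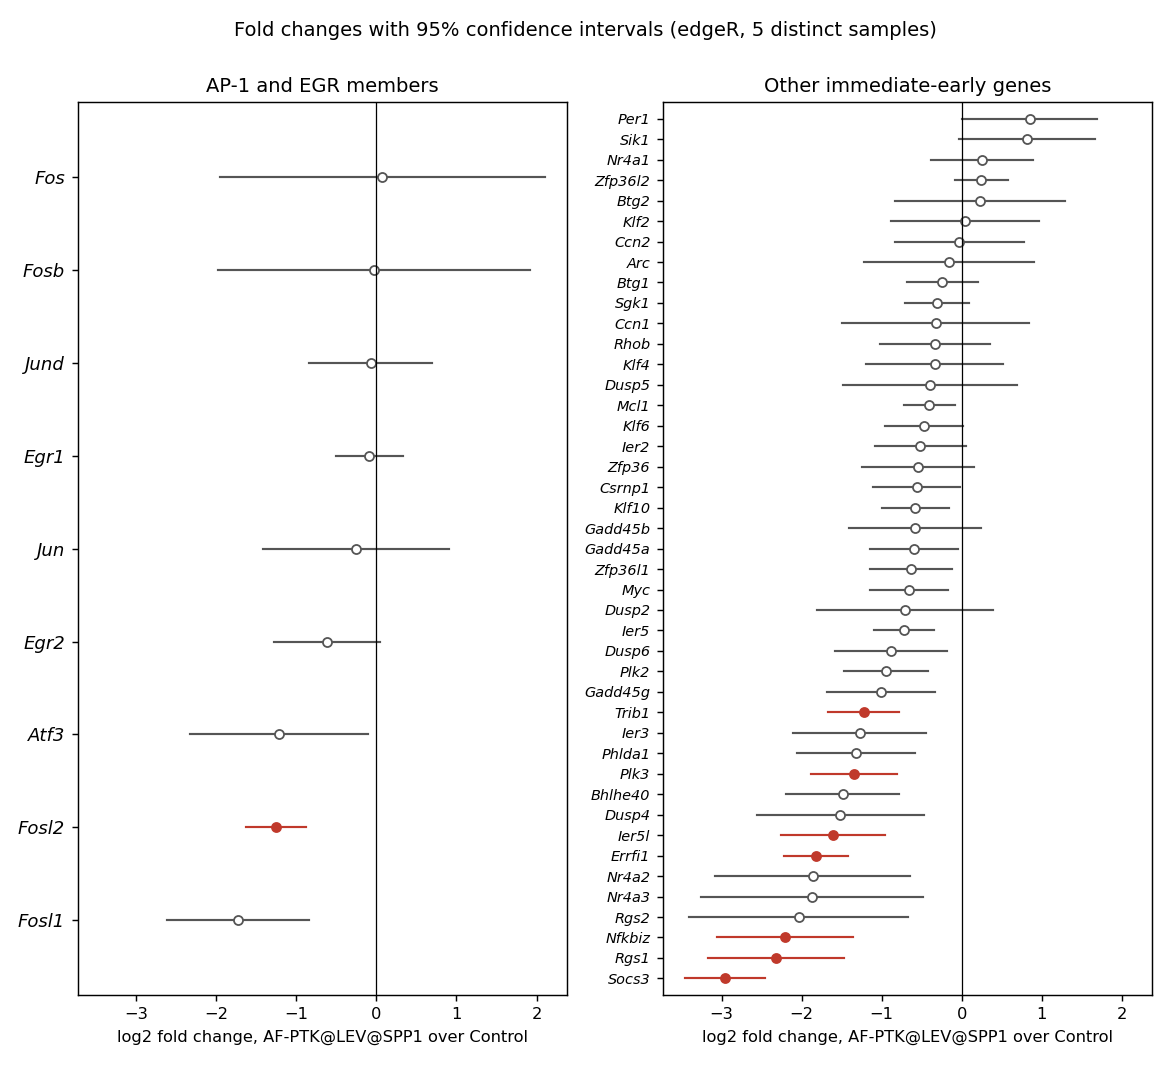
Log2 fold change of AF-PTK@LEV@SPP1 label over Control label (horizontal axes) with 95% confidence intervals from edgeR over 5 distinct samples, for the 9 members tested (left) and 43 other immediate-early genes (right), with called genes as filled red points. The interval of Fosl2 runs from -1.63 to -0.88, that of Fos from -1.96 to 2.10, and 7 genes on the right are called, all lower.

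The MAP kinase cascade and the serum response factor (SRF) group carry many signals to Fos and Egr1. Of 40 listed genes 38 were tested, 2 were called lower and 1 higher, where 2.57% and 1.13% of all genes tested were, and the median log2 fold change was -0.022. Nothing is read from so few calls about the list as a whole, and the called genes are given as single results. Map3k8, a kinase activated by Toll-like and TNF receptors, had 29.6, 26.9 and 30.4 normalized CPM in Control and 12.5, 14.3 and 15.9 in the libraries labelled treated (log2 fold change -1.04, edgeR adjusted p = 0.0339). Nras, a small GTPase upstream of the RAF kinases, had a log2 fold change of -0.61 (edgeR adjusted p = 0.0443). Map3k5, a stress kinase controlled by redox state, went the other way, with 16.7, 18.6 and 19.9 against 37.8, 31.6 and 39.2 (log2 fold change 1.00, edgeR adjusted p = 0.0402). Without Control replicate 1, and likewise without labelled treated replicate 1, 0 of this list were called lower. With the 6 libraries kept, 5 were called in each direction (9.93% lower and 8.2% higher over all genes). DESeq2 called 5 lower and 4 higher (1422 and 1081 of 22112 genes), and limma-voom 1 in each direction (315 and 139 of 15537). At an unadjusted p, 9 were lower and 7 higher (13% and 12.4% over all genes). Mapk3 was listed at 0 counts.

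Known targets of AP-1 showed the largest shift among the 6 pathway lists. The list was chosen with earlier results of these data known, so its rank and its share of calls are a description only. Of 30 listed genes 28 were tested, 13 were called lower and 0 higher, where 2.57% and 1.13% of all genes tested were, and the median log2 fold change was -2.07. Mmp12, the elastase of macrophages, had 477, 282 and 294 normalized CPM in Control and 2.82, 3.55 and 4.38 in the libraries labelled treated (log2 fold change -6.74, SE 0.33, edgeR adjusted p = 0.00863). The chemokine Ccl2 had 154, 210 and 216 against 5.93, 4.04 and 5.07 (log2 fold change -5.21, edgeR adjusted p = 0.00863). Stromelysin Mmp3, which cleaves proteoglycans, had 919, 1740 and 1780 against 89.6, 97.3 and 77.8 (log2 fold change -3.93, edgeR adjusted p = 0.0194). For each of these genes the gap between the groups was far wider than that of Fosl2. Ptgs2, the inducible cyclooxygenase, and the cytokine Lif had log2 fold changes of -4.96 and -4.14 (edgeR adjusted p = 0.0367 and 0.0281). Cxcl1, which has close relatives nearby that may share reads, had 0.176, 1.02 and 1.31 normalized CPM in the libraries labelled treated, the first of them from 3 counts, against 50.5, 100 and 107 (log2 fold change -6.52, edgeR adjusted p = 0.0221).

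At an unadjusted p, 21 of the AP-1 targets were lower and 2 higher (13% and 12.4% over all genes). DESeq2 called 21 lower and 2 higher (1422 and 1081 of 22112 genes), and limma-voom 10 and 0 (315 and 139 of 15537). EdgeR with the 6 libraries kept called 21 and 1 (9.93% and 8.2% over all genes). Without labelled treated replicate 1 the count called lower was 6. With labelled treated replicate 2 or 3 left out, edgeR called 0 genes of the whole table in either direction, while 1581 and 1403 were lower at an unadjusted p, so that every list then had 0 calls. Of the list, Mmp9 also stands among the osteoclast markers, Hmox1 among the heat shock genes, and Krt8 and Krt18 among nucleus pulposus markers. These targets also answer to NF-κB and other factors, and the part of AP-1 in their levels was not tested.

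Heat shock genes, another group that responds quickly to stress and handling, gave 16 tested genes, of which edgeR called 0 in either direction (2.57% lower and 1.13% higher over all genes tested), while 9 lay lower and 3 higher without overlap (21.9% and 23.9%). Their median log2 fold change was -0.338. Hspa8, a constitutive chaperone, had 746, 710 and 730 normalized CPM in Control and 646, 658 and 672 in the libraries labelled treated (edgeR adjusted p = 0.513), and Hsp90ab1 had 538, 511 and 518 against 667, 598 and 590 (edgeR adjusted p = 0.39). Hspa1b, a stress-inducible chaperone gene named after its values were seen, had 6.67, 15.4 and 14.6 against 9.99, 4.22 and 5.18 (edgeR adjusted p = 0.395), and may share reads with its near-identical copy Hspa1a. Like Fos, it was low in Control replicate 1 and labelled treated replicate 2, but unlike Fos it was also low in labelled treated replicate 3. At an unadjusted p, 6 were lower and 1 higher (13% and 12.4% over all genes). DESeq2 called 3 lower and 1 higher (1422 and 1081 of 22112 genes), and limma-voom 0 and 0 (315 and 139 of 15537). EdgeR with the 6 libraries kept called 3 and 1 (9.93% and 8.2% over all genes).

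Markers of other cells moved with the groups and with single libraries. Of 6 osteoclast markers, 4 were called lower, where 2.57% of all genes tested were, and their sum was 6430, 4200 and 4220 normalized CPM in Control and 1110, 1090 and 766 in the libraries labelled treated, led by Ctsk, with none at 0. Of 13 macrophage and monocyte markers tested, 3 were called lower (2.57% over all genes), and the sums were 3200, 2170 and 2150 against 721, 2000 and 2010, led by Lyz2, with Marco at 0, while Cd163 went the other way without a call (log2 fold change 1.15, edgeR adjusted p = 0.246). The osteoclast sum lay well lower in the libraries labelled treated. The macrophage sum in labelled treated replicates 2 and 3 lay only just under the Control pair. Its leading gene Lyz2 overlapped between the groups (edgeR adjusted p = 0.571). Both sums were highest in Control replicate 1, unlike Fosl2 and Fosl1. Skeletal muscle markers, led by Acta1, summed to 903, 1180 and 1190 in Control and 898, 9390 and 2440 in the libraries labelled treated, and erythroid markers, led by Slc4a1, to 118, 40.1 and 35.8 against 90.3, 1490 and 699. Labelled treated replicate 2, in which Fos, Fosb and Jund were low, was thus the library richest in muscle and erythroid transcripts. In Control replicate 1, where Fos, Fosb and Jund were also low, these sums were 903 and 118. Neutrophil markers, led by S100a9, summed to 1230, 197 and 185 against 331, 3190 and 4270. Of 5 T cell markers tested, led by Lck, 1, Cd8a, was called lower (2.57% over all genes), and the sums were 15.9, 16.7 and 16.7 against 6.76, 9.34 and 9.96.

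Adipocyte markers, led by Adipoq, summed to 275, 42.8 and 41 normalized CPM in Control and 553, 1030 and 423 in the libraries labelled treated, and 6 of 6 lay higher without overlap, where 23.9% of all genes tested did. Nucleus pulposus and notochord markers, led by Car3, summed to 1710, 586 and 576 against 7230, 4030 and 3590, and 7 of 8 lay higher. Over 5 distinct samples, neither list had a gene called by edgeR (0 genes) or by limma-voom. At an unadjusted edgeR p, 3 and 6 genes were higher (12.4% of all genes tested). DESeq2 called 3 and 6 higher (1081 of 22112 genes), and edgeR with the 6 libraries kept 1 and 2 (8.2% over all genes). The share of mitochondrial counts was 8.54%, 7.2% and 7.18% in Control and 6.3%, 7.13% and 8.74% in the libraries labelled treated. The part of these cells and of RNA quality in the levels of the AP-1 and EGR genes was not tested.

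Promoter sequences from RefSeq (GRCr8, 250 bases before to 50 after the annotated start) were matched by symbol for 7 of the 10 members. Fos, Jun and Atf3 were not matched. Both strands were searched for TGACTCA, the AP-1 site of Jun and Fos dimers, for TGACGTCA, the cyclic AMP response element (CRE), for its part TGACG, for the CArG box that SRF binds, for the EGR sites GCGTGGGCG and GCGGGGGCG, for the SP1 box GGGCGG and for TATAAA. The AP-1 site was in 0 of the 7 promoters, where 4.63% of 33469 promoters of the same length held it, and the CRE in 1, that of Jund from -221 to -214, where 1.83% did. The CRE part TGACG, which every CRE contains, was in 5 members (21.2% of all promoters). The CArG box was in 2, Egr1 and Egr2 (1.64%), and an EGR site in 2, Fosl2 and Jund (3.2%). The SP1 box was in 4 (33.1%) and TATAAA in 2 (14.2%). Positions are counted from the start, with the base before it as -1.

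The promoters of Fosl2, Fosl1 and Egr2 are shown because these members lay lower together in the libraries labelled treated. They lie at chr6:30039220-30039519 on the minus strand, chr1:212183635-212183934 on the plus strand and chr20:21054392-21054691 on the minus strand of GRCr8, and each is written from 5′ to 3′ along its gene. Capitals mark an EGR site in Fosl2, from -249 to -241, which overlaps an SP1 box. In Fosl1 they mark the CRE part, read as its reverse complement, from -148 to -144 and from -84 to -80. In Egr2 they mark a CArG box from -83 to -74 and the CRE part from -66 to -62. The SP1 box was the only searched motif present in all 3. A match describes letters and not binding.
Fosl2: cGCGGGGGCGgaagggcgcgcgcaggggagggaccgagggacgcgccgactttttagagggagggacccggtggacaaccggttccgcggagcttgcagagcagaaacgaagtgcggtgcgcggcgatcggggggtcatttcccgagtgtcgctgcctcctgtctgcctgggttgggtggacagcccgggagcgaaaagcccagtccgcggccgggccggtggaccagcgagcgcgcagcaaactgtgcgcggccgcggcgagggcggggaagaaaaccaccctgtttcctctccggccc
Fosl1: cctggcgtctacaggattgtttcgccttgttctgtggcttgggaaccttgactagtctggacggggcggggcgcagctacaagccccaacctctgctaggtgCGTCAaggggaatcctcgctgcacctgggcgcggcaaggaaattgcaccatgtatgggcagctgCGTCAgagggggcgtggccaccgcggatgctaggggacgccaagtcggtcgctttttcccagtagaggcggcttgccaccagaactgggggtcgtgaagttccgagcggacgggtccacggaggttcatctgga
Egr2: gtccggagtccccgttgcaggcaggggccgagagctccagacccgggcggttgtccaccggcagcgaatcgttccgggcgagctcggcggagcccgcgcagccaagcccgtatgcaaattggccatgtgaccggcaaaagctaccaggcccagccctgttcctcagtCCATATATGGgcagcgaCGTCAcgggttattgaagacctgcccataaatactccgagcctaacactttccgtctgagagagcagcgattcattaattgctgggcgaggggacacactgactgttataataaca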

How the data were processed

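Total RNA of disc tissue was sequenced, and the authors deposited counts, whole numbers of reads per rat Ensembl gene and library, without normalization. The submitters' notes name FastQC, Trimmomatic, HISAT2, featureCounts and DESeq2 without versions and mm10, a mouse build that the rat identifiers contradict. Strand and shared-read settings are not given in the sources used here. Columns named IVD were read as Control because the paper calls its PBS group IVDD.

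Counts were normalized with the trimmed mean of M-values and tested with edgeR 4.0.16 in R 4.3.3 (filterByExpr at a minimum count of 10, common biological coefficient of variation 0.302), with Control replicates 2 and 3 summed. A prior count of 2 was added for log2 CPM. The fitting was tested on simulated data. DESeq2 1.42.0, limma-voom, other scalings, no filter and each library left out were alternatives. DESeq2 was fitted to all 22112 genes with counts, including any that its own filter leaves without an adjusted p.

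The genes named were the 10 members, up to 6 called genes of each pathway list with the largest change among those whose log2 CPM averaged 1 or more, or the 2 most abundant, and the leading markers, of which some are not reported here. The members and lists were chosen with earlier results of these data known. A planned order of levels between genes was not run, for want of gene lengths.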

Additional observations from a re-analysis of the deposited data

How the results depend on the processing

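Of the 13 alternatives, Fosl2 kept its direction in 13 and its call in 10, and Fosl1, Atf3, Egr2, Jun and Egr1 kept their direction in 13. With the 6 libraries kept, 2 members were called lower, and 1494 genes of the table were called lower and 1233 higher. DESeq2 gave 2 members, 1422 and 1081 genes. The replicate block, fitted on the 6 libraries, called 1 member, 434 genes lower and 307 higher, fewer than the same 6 libraries without it. EdgeR over 5 distinct samples called 400 and 175. Libraries of the same number had correlations of -0.326, -0.282 and -0.0756 between their deviations from the group means. Because Control replicates 2 and 3 are near-identical, these values cannot decide whether the numbers pair the samples. With each library left out, the members called lower ranged from 0 to 2, genes called lower from 0 to 396 and genes called higher from 0 to 170, with 0 of both without labelled treated replicate 2 or 3, and 83 and 30 without labelled treated replicate 1, each with 2 samples against 2. Without Control replicate 1 they were 215 and 65. Without Control replicate 1, its lone remaining sample is assumed to vary like the other group.

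The sign of Fos turned with the 6 libraries kept (log2 fold change -0.17) and with the replicate block (-0.15), and ranged from -0.60 to 0.47 with a library left out. That of Fosb turned with library totals alone (0.013) and ranged from -0.61 to 0.40. That of Jund ranged from -0.32 to 0.13. None of these passed the threshold in any alternative, and the cause was not tested. Fosl1 passed in 3 alternatives. Without the filter, 5 partners of AP-1 were called lower in place of 3. Heat shock genes called lower were 0 over 5 distinct samples, 3 with the 6 libraries kept and 2 with the block added. Depth limits Fosl1 and Egr2 most, at 38 to 169 and 53 to 129 counts a library.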
